A study of Mus musculus with 3 samples.

Results

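The immediate response genes of the Ier, Btg and Klf families form a set of 10 genes among 55536 annotated genes. The set holds Ier2, Ier3, Ier5, Btg1, Btg2, Klf2, Klf4, Klf6, Klf10 and Klf13. Its genes were chosen by name and not by a measured value, though with earlier results of these data known. Bone-marrow-derived macrophages, which are primary cells grown from marrow of the mouse strain C57BL/6J, had received Lipid A at 100 ng/ml and were taken after 30 min. Lipid A is the part of bacterial lipopolysaccharide that Toll-like receptor 4 recognises. Total RNA of the cytosolic fraction was depleted of ribosomal RNA and sequenced in 3 libraries, all of this 1 group. The libraries carry the replicate numbers 1, 2 and 3 of the labels. The same donor record is given for all of them, with neither sex nor age, so the spread between libraries may be partly technical. Untreated cells, other times and the nuclear fraction were not analysed here. The values are therefore levels after 30 min of Lipid A, and no gene is called induced.

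Immediate-early response genes need no newly made protein for their transcription, and their messenger RNAs appear and decay quickly after a stimulus such as a Toll-like receptor ligand or a growth factor. The IER proteins are small nuclear or cytoplasmic regulators. The BTG proteins slow cell division and bind deadenylases of the CCR4-NOT complex, which shorten poly(A) tails. The KLF proteins are zinc-finger transcription factors that bind GC-rich and CACCC sequences, and KLF2 and KLF4 are known in macrophages for their effect on inflammatory genes.

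The gene tables held 23403552, 50435201 and 35785896 expected counts in replicates 1, 2 and 3. All 8 macrophage markers examined had 10 TPM or more (a level per transcript length, scaled to a fixed total per library). The 7 stromal markers were highest in replicate 1 in 7 of 7 cases. Summed, they reached 257 CPM (counts scaled to library size with a TMM factor) in replicate 1, while replicates 2 and 3 had 0.257 and 1.04 CPM. Their most abundant gene, the collagen gene Col1a1, had 8.94 TPM in replicate 1 and 0 and 0.04 TPM in the other libraries. The T and NK markers summed to at most 0.221 CPM in any library, the B-cell markers to between 1.16 and 2.09 CPM, the endothelial markers to between 92.3 and 111 CPM and the neutrophil markers to between 77.6 and 94.4 CPM. Among the endothelial markers, Vwf had 10.4 ± 2.57 TPM (mean ± SD, n = 3, as for all such values), while Tek was at or near 0. Kdr had 2.64 ± 0.745 TPM, while Pecam1 and Cdh5 had 0.22 ± 0.0265 and 0.08 ± 0.0173 TPM. Most of the neutrophil sum came from Csf3r, with 81.7, 61.5 and 78.0 CPM in replicates 1, 2 and 3. S100a8 and S100a9 had at most 5.61 and 10.4 CPM, and Ly6g, Mpo and Elane at most 0.0290, 0.929 and 0.311 CPM.

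The 3 Ier genes had the highest summed level of the families, at 447, 589 and 502 TPM in replicates 1, 2 and 3. Ier2, an intronless gene whose nuclear protein acts in early transcription (ENSMUSG00000053560.4, minus strand, chr8:84661331-84662852 in mm10), had 201, 306 and 279.7 TPM. Its mean of 262 ± 55.1 TPM was the highest of the 10 genes, and 98.6% of the nuclear protein-coding genes with at least 1 TPM lay below it. Ier3, whose product affects apoptosis and ERK signalling (ENSMUSG00000003541.6, plus strand, chr17:35821684-35822923), had 197, 230.0 and 169 TPM, a mean of 199 ± 30.4 TPM. Ier5, encoding a protein that links the phosphatase PP2A to the heat shock factor HSF1 (ENSMUSG00000056708.5, minus strand, chr1:155096361-155099636), had 49.8, 52.0 and 53.1 TPM. Its mean was 51.6 ± 1.71 TPM, and the libraries lay close together on this scale. Of the family, Ier5 was thus the lowest in each library, and Ier2 was above Ier3 in 3 of 3.

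The Btg genes stood apart from each other. Btg2, a target of p53 (ENSMUSG00000020423.6, minus strand, chr1:134075170-134079120), had 136, 148 and 141 TPM, with a mean of 142 ± 5.80 TPM. Btg1, which encodes the related antiproliferative protein (ENSMUSG00000036478.8, plus strand, chr10:96617006-96622809), had 28.8, 39.1 and 27.8 TPM, with a mean of 31.9 ± 6.26 TPM. No Btg1 value reached the Btg2 range. Btg1 has pseudogene copies, and the deposited posterior SD of its counts was 0.16 to 0.20 counts, with 0 for the other members, so few of its reads were shared out.

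The Klf genes spanned the widest range of the families. Klf6, a broadly expressed zinc-finger factor (ENSMUSG00000000078.7, plus strand, chr13:5861482-5870394), had 149, 171 and 126 TPM, a mean of 149 ± 22.9 TPM, and made up most of the family's sum of 188, 225 and 173 TPM. Klf2, known for a quiescent state of endothelial and immune cells (ENSMUSG00000055148.7, plus strand, chr8:72319033-72321656), had 14.8, 20.2 and 21.9 TPM, a mean of 19.0 ± 3.71. Klf13, a regulator of the chemokine gene Ccl5 in T cells (ENSMUSG00000052040.10, minus strand, chr7:63886351-63938915), had 14.8, 20.8 and 15.8 TPM, a mean of 17.1 ± 3.20. The 2 genes had overlapping ranges. Whether counting used the strand is not given, and reads of other genes annotated on the opposite strand within the span of Klf13 cannot be told apart with certainty. Klf10, first described as a gene induced by TGF-beta (ENSMUSG00000037465.10, minus strand, chr15:38291463-38300706), had 8.37, 10.2 and 8.18 TPM, a mean of 8.91 ± 1.10 in the gene table. Klf4, a pluripotency and macrophage factor (ENSMUSG00000003032.8, minus strand, chr4:55527143-55532466), was lowest, at 0.66, 2.05 and 1.18 TPM, a mean of 1.30 ± 0.702. These values rest on 86, 424 and 199 counts, for which exact 95% Poisson intervals were 68.8 to 106, 385 to 466 and 172 to 229. The intervals cover counting error only, and the libraries differ in depth.

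**Figure D1:**
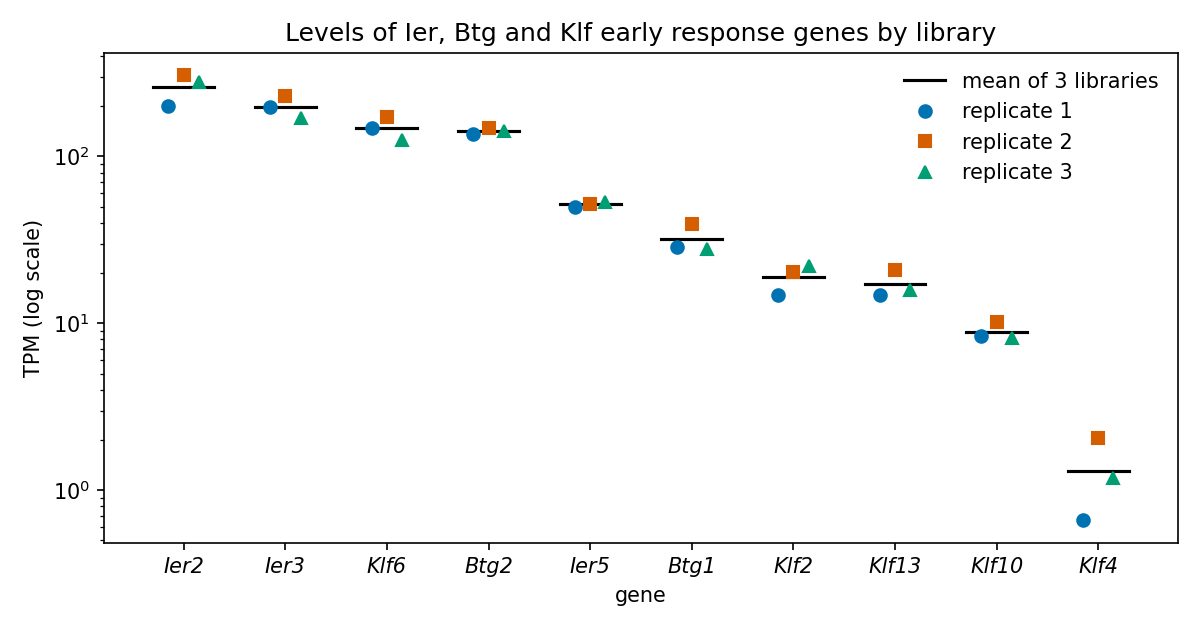
TPM of each gene (log axis) in the gene tables, with 1 symbol per library and a bar at the mean of the 3 libraries. Ier2, Ier3, Klf6 and Btg2 have means of 142 to 262 TPM, Klf4 has 1.30 TPM and varies most between libraries.

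Beside the protein-coding background, the members lay high but with exceptions. A mean of at least 1 TPM was reached by 10 of 10 genes (9 in every library), at least 10 TPM by 8 and at least 100 TPM by 4. The shares of the 22015 nuclear protein-coding genes at these levels were 42.7%, 18.0% and 1.91%. Taken as log2(TPM + 1), the members had a median of 5.37 ± 0.14, beside 3.11 ± 0.30 over all nuclear protein-coding genes at 1 TPM or more. The members were chosen as genes known for an early response, and nothing is read from this beyond their level. In the order of means, Ier2, Ier3, Klf6, Btg2, Ier5, Btg1, Klf2, Klf13, Klf10 and Klf4, the span from top to bottom was 202-fold. The higher gene was higher in every library for 7 of 9 neighbouring pairs. The exceptions were Klf6 above Btg2 and Klf2 above Klf13, each in 2 of 3 libraries. Ranges over libraries were apart for 5 pairs. They overlapped also for Ier2 with Ier3 and for Ier3 with Klf6. Within libraries, Ier3 was 1.32 to 1.35 times Klf6, a steady ratio, while Ier2 was 1.02 to 1.65 times Ier3. Klf6 was 0.890 to 1.16 times Btg2 and Klf2 was 0.974 to 1.39 times Klf13, so the last 2 pairs did not differ beyond their spread. An exact sign-flip permutation test over 3 libraries cannot go below p = 0.25 and was not run on the pairs.

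How far the members vary between libraries was examined on counts. In CPM, Ier2 had 538, 543 and 680 in replicates 1, 2 and 3, and was highest in replicate 3. Ier3 had 369, 283 and 289 CPM and Klf6 had 1210, 920.4 and 906 CPM, and both were highest in replicate 1. Btg2 had 707, 510.0 and 663 CPM and Ier5 had 314, 218 and 302 CPM, so replicate 2 was low for both. Klf2 had 49.7, 44.9 and 66.6 CPM, with replicate 3 high. Klf10 had 47.7, 38.2 and 41.9 CPM. Klf13, at 183, 170 and 175 CPM, differed least, with a highest value 1.08-fold above the lowest. Btg1 was at 277, 254 and 225 CPM, and Klf4 at 3.82, 7.79 and 5.78 CPM, a ratio of 2.04 that was the largest among the members. For 9 of the 10 genes the libraries stayed within 1.5-fold of each other, beside 73.2% of all genes tested. The genes tested include those with low counts, while 9 members had a mean count of 1000 or more. No share at like counts is given, so the members cannot be called steadier than comparable genes. The median ratio of highest to lowest library was 1.32 for the members and 1.27 for all genes tested.

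Every member passed the test for variation beyond Poisson sampling (chi-square index of dispersion on counts, Benjamini-Hochberg adjustment over the 13237 genes whose mean count reached 10). The largest adjusted p was 7.55e-04, for Klf13, followed by 6.91e-08 for Klf10 and 2.47e-09 for Klf4. In all, 66.8% of the genes tested passed, and 86.0% of the 5163 genes whose mean count reached 1000, so the count of 10 says little about the members. The biological coefficient of variation estimated by edgeR was smaller than the median of all tested genes, 17.3%, for 9 of the 10 genes. Among genes whose mean count reached 1000 it was 12.1%, and 8 of the 9 members there lay above it. The members' median was 14.9%, Klf13 had the lowest value at 10.8% and Klf4 the highest at 31.0%. The calls of single genes depended on single libraries. Without replicate 1, Ier3, Klf6 and Klf13 no longer passed the same test, with adjusted p of 0.133, 0.119 and 0.0614. Without replicate 2, Klf13 did not pass at 0.0945, and without replicate 3, Ier2 did not, at 0.649. In the second transcript table, a further deposited quantification, Klf13 did not pass either, at 0.22.

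Replicate 1 held the highest CPM of 7 members, namely Ier3, Ier5, Btg1, Btg2, Klf6, Klf10 and Klf13. Replicate 3 was highest for Ier2 and Klf2, and replicate 2 for Klf4. Over all genes tested, 29.8%, 39.0% and 31.3% were highest in replicates 1, 2 and 3. The median deviation of the members from their own means was 0.15 on the log2 scale in replicate 1, -0.13 in replicate 2 and 0.03 in replicate 3, while the medians of all tested genes were within 0.01 of 0. Replicate 1 is also the library with the high stromal markers, the part of which in this was not tested. With replicate 1 left out, 7 members were higher in replicate 3 and 3, namely Btg1, Klf4 and Klf6, in replicate 2, where 50.2% of all genes tested were higher. The order of libraries turned with the scale. In TPM as deposited, 8 members were highest in replicate 2, Ier5 and Klf2 in replicate 3 and none in replicate 1. Nuclear protein-coding genes held 22.3%, 34.4% and 24.3% of the TPM in the 3 libraries. With TPM rescaled to these genes, the same 7 members were again highest in replicate 1.

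**Figure D2:**
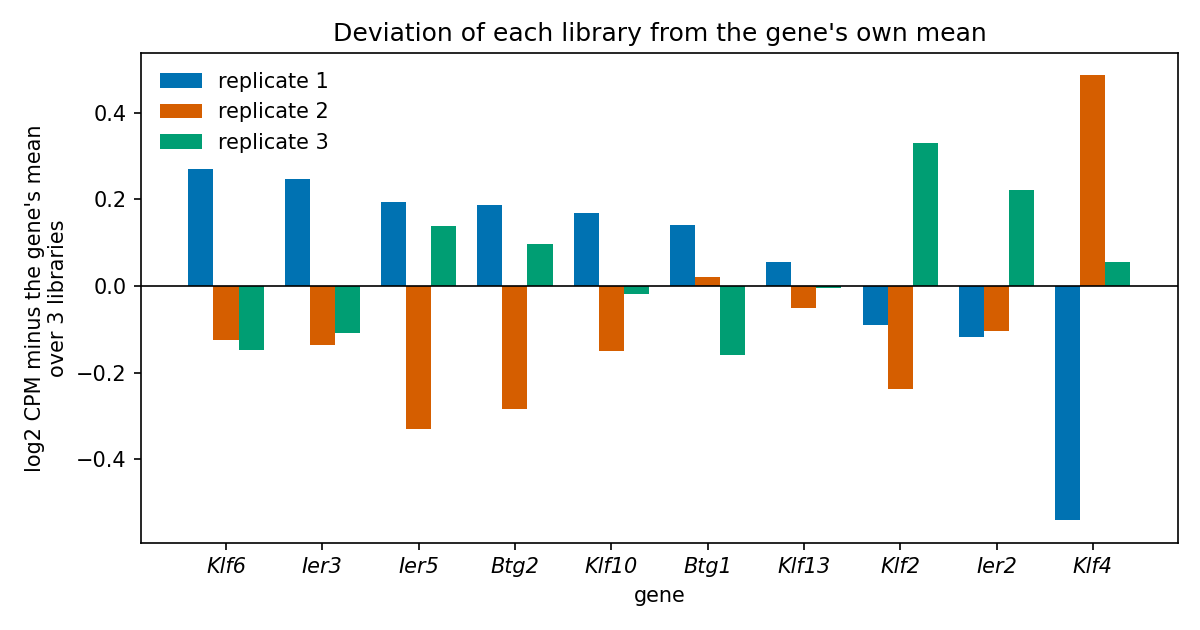
Difference of each library's log2 CPM from the gene's mean over the 3 libraries, with 1 bar per library and the genes ordered by replicate 1. The bars of replicate 1 are above 0 for 7 genes; Klf4 is lowest in replicate 1 and highest in replicate 2.

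By a rule of likeness, the nearest of 3953 other protein-coding genes with 10 TPM or more to the members' median deviations were Rps6ka1, Cln6 and Aph1c. Their Euclidean distances were 0.029, 0.030 and 0.030 log2 units over 3 libraries. These genes were picked for small distances among many candidates, so nothing is read from the distances. Single members lay farther from the medians, such as Klf4, with deviations of -0.541, 0.486 and 0.0549 in replicates 1, 2 and 3. Rps6ka1, encoding a ribosomal S6 kinase downstream of ERK, had 15.1 ± 1.63 TPM, Cln6 17.5 ± 2.43 and Aph1c, which encodes a gamma-secretase subunit, 30.0 ± 2.02 TPM.

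The transcripts behind these levels were few. Ier2, Ier3, Ier5, Btg2 and Klf2 have 1 annotated transcript each, and the other 5 genes share 18. In the first transcript table, which has the layout of the gene table, 1 transcript held 90% or more of the gene's TPM in every library for 8 of 10 genes. In the second transcript table this held for 6 genes, and for 9 by share of that table's counts. Each of these numbers includes the 5 genes with 1 annotated transcript, which meet the threshold by annotation alone. Of the 5 genes with several transcripts, Klf4, Klf6 and Klf13 met it in the first table and only Klf13 in the second. By share of counts, all of them but Klf10 met it. No share over other genes is given beside these numbers. For Klf6 in the first table, Klf6-201 held 97.0 ± 0.920%, the retained-intron transcript Klf6-202 held 1.68 ± 0.890% and Klf6-203, annotated as a target of nonsense-mediated decay, 1.33 ± 0.269%. Klf13-201 held 96.5 ± 0.448% and the retained-intron transcript Klf13-203 held 1.18 ± 0.385%. The short Btg1-202 had 3.00, 1.23 and 10.04% of the Btg1 TPM in replicates 1, 2 and 3, so that Btg1-201 fell just short of 90% in replicate 3, at 89.96%. The second table gave minor transcripts larger shares of TPM. Btg1-202 had 21.8 ± 9.34% there, Klf6-202 had 7.55 ± 1.97% and Klf6-203 had 6.69 ± 1.76%. Klf4-201 had 89.6 ± 11.3% there beside 97.1 ± 3.68% in the first table, and Klf13-201 had 93.2 ± 1.11%.

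The 2 deposited quantifications lay farthest apart for Klf10, where they named different leading transcripts. In the first transcript table, the full-length Klf10-201 had 76.0, 56.1 and 80.2% of the Klf10 TPM in replicates 1, 2 and 3, and Klf10-202, which starts at another first exon, had 22.6, 42.5 and 17.6%. The truncated Klf10-204 had 0, 1.34 and 0%. In the second transcript table, Klf10-204 had 93.1, 78.6 and 69.2% of the TPM and Klf10-201 had 5.91, 12.9 and 22.9%. Klf10-202 differed as well, with 0.0387, 6.97 and 1.88% of the TPM in the second table. Against its 237, 871 and 248 expected counts in the first table, it had 7.11, 731 and 108 estimated counts in the second. Klf10-204 stood at 46.9, 22.9 and 5.04 TPM there, from 735, 344 and 202 estimated counts, against 0, 1 and 0 expected counts in the first table. Its effective length in the second table was 115, 112 and 138 nt, beside 2808, 2791 and 2841 nt for Klf10-201, so that a given count weighs far more in TPM. By share of counts in the second table, Klf10-204 had 38.7, 13.7 and 11.7% and Klf10-201 had 59.9, 56.5 and 79.5%. Klf10-204 was highest in replicate 1, the library with the fewest counts, both in counts and in TPM.

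**Figure D3:**
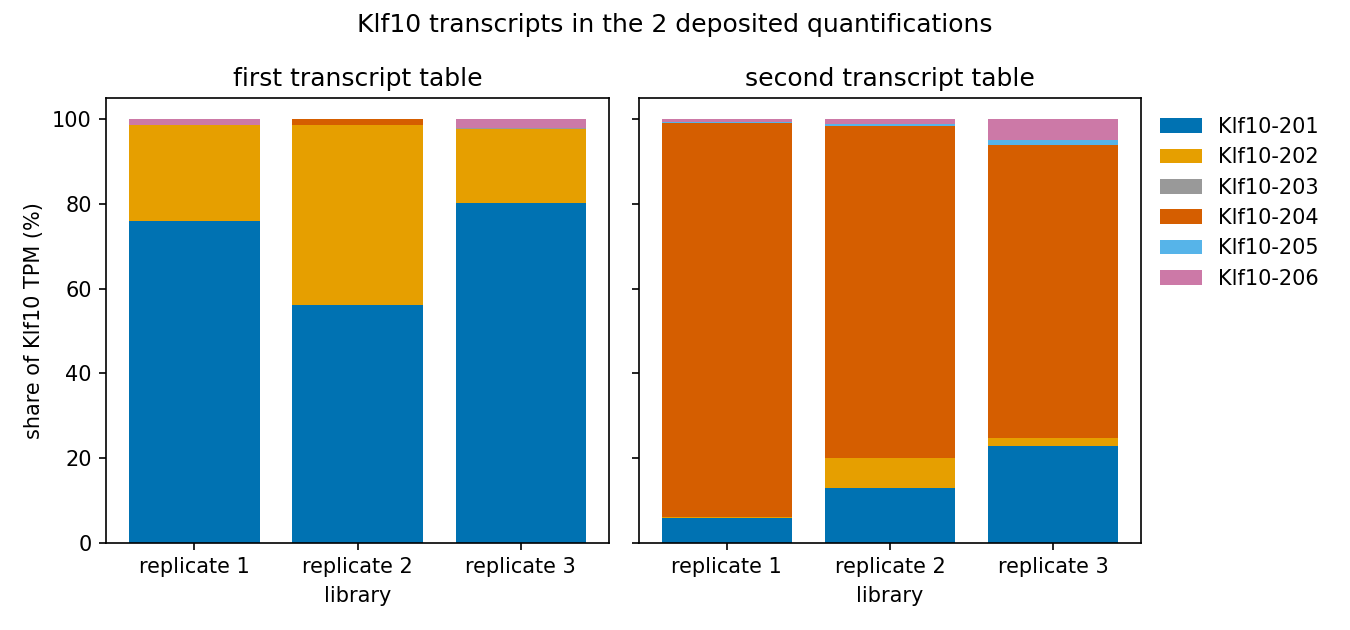
Share of Klf10 TPM (%) held by each of 6 transcripts in replicates 1, 2 and 3, in the first (left) and second (right) transcript table. Klf10-201 and Klf10-202 fill most of the left bars, and Klf10-204 holds 69.2 to 93.1% of the right bars.

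Klf10-204 is annotated as protein-coding with an incomplete end, 326 nt long in 3 exons. It shares 148 nt, its whole exon 1, with Klf10-201, and 178 nt are not part of Klf10-201. These lie between exons 1 and 2 of Klf10-201. They are shown because Klf10-204 leads the Klf10 TPM in the second table only. The sequence is given 5′ to 3′ on the minus strand of GRCm38 from the GENCODE transcript sequence, and capitals mark a run of 33 A. Exon 2 is at chr15:38300267-38300417 and exon 3 at chr15:38299874-38299900.
Klf10-204 exon 2: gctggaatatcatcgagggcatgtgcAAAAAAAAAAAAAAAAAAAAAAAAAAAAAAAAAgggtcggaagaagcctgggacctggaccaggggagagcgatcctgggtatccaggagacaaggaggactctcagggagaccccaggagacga
Klf10-204 exon 3: ggggcagggtcctgccttggagcccga
Of the 23 transcripts of the members, Klf10-204 alone holds a run of 33 A or more. Over all annotated transcripts, 82 hold such a run, and 24 of these had a mean of 100 or more estimated counts in the second table. For 7 of the 24, Klf10-204 included, the second table gave at least 10 times the counts of the first (29.2%), beside 4.43% of the 17298 transcripts without such a run. The run length was set by Klf10-204 itself, so its place among the 7 was given in advance, and the sets were not matched for transcript length. Whether the run plays a part in the Klf10 values was not tested.

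The disagreement reached the gene level. The second table gave 1.77, 1.21 and 1.20 times the Klf10 counts of the gene table in replicates 1, 2 and 3, where the median over genes with 100 counts or more was 1.10, 1.07 and 1.09. The other members with 100 counts had ratios of 1.07 to 1.14, 1.04 to 1.14 and 1.04 to 1.17. Ratios as high as that of Klf10 occurred in 0.731, 4.81 and 6.96% of genes. With TPM rescaled to the sum over nuclear protein-coding genes, Klf10 had 37.5, 29.6 and 33.7 in the gene table and 571, 136 and 123 in the second table. By means, this moved Klf10 from rank 9 to rank 5 among the 10 genes, and without Klf10-204 its mean in the second table was 35.5. The rank of the mean rests on replicate 1. In replicates 2 and 3 of the second table, Klf10 lay below Ier5, at 142 and 205, and below Btg1, at 139 and 140. The other 9 genes had ratios of means between 0.939 and 1.17, and their order was the same in both.

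**Figure D4:**
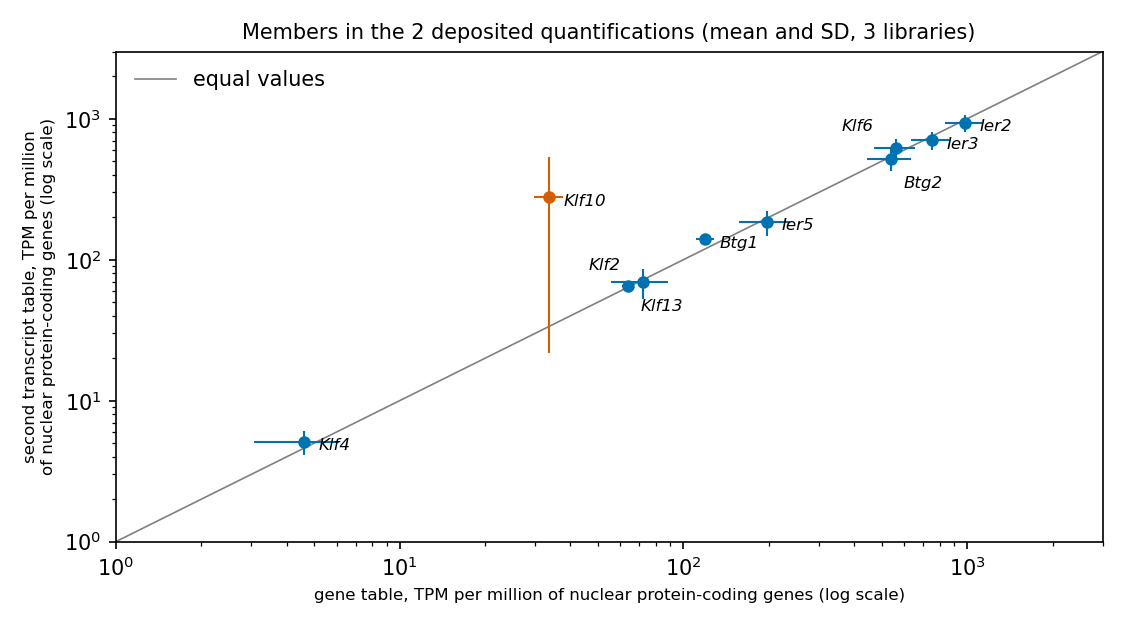
Mean and SD over 3 libraries of each gene's TPM rescaled to nuclear protein-coding genes, in the gene table (horizontal, log axis) and the second transcript table (vertical, log axis), with a line of equal values. Klf10 lies at 33.6 and 277, and the other 9 genes lie near the line.

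Most members have few exons, a feature that was not used to choose them. Their leading transcripts have 1 exon for Ier2 and Ier5, 2 for Ier3, Btg1, Btg2 and Klf13, 3 for Klf2, 4 for Klf6 and Klf10 and 5 for Klf4. Thus 9 of 10 have at most 4 exons, beside 20.1% of the 9391 expressed protein-coding genes examined, and the median was 2 exons beside 9. The genes are not all compact, since Klf13 holds 46169 nt of its span outside the leading transcript. The transcripts themselves are not short, with a median of 3036 nt beside 2784 nt. The 3′ untranslated regions had a median of 1818 nt beside 1004 nt. The pentamer ATTTA, the core of AU-rich elements that bind decay factors such as ZFP36, occurs there in 9 of 10 members, beside 68.9% of 8792 genes. Per kilobase, the members' median was 1.80 matches beside 1.36, and 5 of the 10 lay above the median of all genes. Btg1 holds 11 matches in 4166 nt, Klf6 has 7 in 3111 nt, Btg2 has 5 in 2199 nt and Ier2 has none in 755 nt. The longer motif TTATTTATT was found in 0 of 10 members and in 7.25% of genes. Ier3 is the densest, with 5 matches in 613 nt or 8.16 per kilobase, above 98.5% of the genes. Its densest stretch of 30 bases, starting at base 171 of the untranslated region, is shown with its matches in capitals.
Ier3-201: tgtctaattaatATTTAtgtATTTAtgtat

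Promoter windows from RefSeq (GRCm38.p6, 250 bases before to 50 after the start site) were matched by symbol for 8 members, all but Ier2 and Klf10. Motifs were searched on both strands and compared with 32851 windows of the same length. GGGCGG, the core bound by SP and KLF factors, was in 8 of 8 windows beside 35.7% of all. A loose NF-kB-like pattern, GGG and CC with any 5 bases between, was in 8 of 8 beside 50.8%. The members' windows had a median GC content of 67% beside 52.7%, and both patterns are GC-rich. CACCC was in the windows of Klf2 and Klf13 only, 2 of 8 beside 57.5%. The CREB site TGACGTCA was in 1 of 8, that of Btg2, 166 bases before the start site, beside 1.79% of all windows. The related TGACGCAA was in 0 of 8, beside 0.490%, and the CArG box, which SRF binds, in 0 of 8 beside 1.63%. A match is a description of the letters, and a missing match says only that the letters are not in these windows. The windows of the highest member of each family with an entry are shown, with TGACGTCA in capitals for Btg2 and GGGCGG in capitals for Ier3 and Klf6. They are at chr1:134079106-134079405 (minus strand), chr17:35821463-35821762 (plus strand) and chr13:5861239-5861538 (plus strand).
Btg2: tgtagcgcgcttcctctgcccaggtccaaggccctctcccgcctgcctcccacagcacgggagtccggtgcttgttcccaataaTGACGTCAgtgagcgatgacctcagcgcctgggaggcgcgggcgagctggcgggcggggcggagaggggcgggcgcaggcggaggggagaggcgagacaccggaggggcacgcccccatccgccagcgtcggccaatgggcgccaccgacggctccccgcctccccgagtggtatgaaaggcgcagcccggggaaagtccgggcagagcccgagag
Ier3: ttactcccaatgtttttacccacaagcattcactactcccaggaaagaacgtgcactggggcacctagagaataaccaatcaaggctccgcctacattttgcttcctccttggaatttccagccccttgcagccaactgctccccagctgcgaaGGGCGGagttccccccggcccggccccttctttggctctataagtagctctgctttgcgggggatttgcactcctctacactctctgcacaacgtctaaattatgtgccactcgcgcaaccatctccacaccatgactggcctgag
Klf6: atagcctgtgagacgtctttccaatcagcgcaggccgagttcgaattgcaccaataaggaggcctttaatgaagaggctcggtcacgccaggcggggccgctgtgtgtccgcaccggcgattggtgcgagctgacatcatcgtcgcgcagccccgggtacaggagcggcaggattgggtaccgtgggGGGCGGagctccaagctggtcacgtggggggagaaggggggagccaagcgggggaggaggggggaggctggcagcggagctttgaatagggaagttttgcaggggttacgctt

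Relatives of the members were mostly low. Among 12 other Klf genes, 5 reached 1 TPM and 1 reached 10 TPM. Klf3, a repressor, had 14.9 ± 4.81 TPM, while Klf14 and Klf17 had 0 counts in every library and Klf5 had 1 count in replicate 3. A count of 0 allows 3 counts, or 0.128, 0.0595 and 0.0838 CPM of the library totals in replicates 1, 2 and 3. Of 5 other Ier, Btg and Tob genes, 3 had 1 TPM or more, led by Tob2 at 11.9 ± 2.07 TPM, and Btg4 had 0 counts. Genes of the CCR4-NOT complex, the partner of the BTG proteins, all had 1 TPM or more, 10 of 10, from Cnot10 at 3.46 ± 0.882 to Cnot6l, a deadenylase, at 16.9 ± 5.74 TPM. Of the PP2A subunits and Hsf1, 6 of 6 had 1 TPM or more, from Hsf1 at 4.44 ± 0.981 to the scaffold subunit gene Ppp2r1a at 58.3 ± 10.5 TPM.

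Regulators known to act on the members were present as well. SRF and its cofactors had 6 of 6 genes at 1 TPM or more, from Elk1 at 4.19 ± 1.17 to Mrtfa at 18.8 ± 2.51 TPM. The ERK5 and MEF2 route to Klf2 and Klf4 had 7 of 7, from the kinase gene Map3k2 at 7.18 ± 0.963 to Mef2c at 28.5 ± 9.28 TPM. The TGF-beta route had 6 of 7, from the inhibitor gene Smad7 at 0.613 ± 0.118 to the ligand gene Tgfb1 at 142 ± 31.6 TPM. Trp53 and the FOXO factors had 4 of 4, from Foxo1 at 1.56 ± 0.339 to Foxo3 at 21.9 ± 3.92 TPM. Among 13 other immediate-early genes, 12 were at 1 TPM or more, of which 8 reached 100 TPM. Fos, an AP-1 subunit gene, had 290, 756 and 662 TPM, a mean above that of Ier2, while Fosl1 was at or near 0. All 12 of these genes that could be tested passed the test for variation between libraries, by the same test as above. Of all genes tested, 66.8% passed, and 86.0% of those whose mean count reached 1000, so this count says little about these genes. The 12 genes were highest in replicate 1 in 5 cases, in replicate 2 in 0 and in replicate 3 in 7, where the members had 7, 1 and 2. The shares of all genes tested were 29.8%, 39.0% and 31.3%.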

How the data were processed

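Cytosolic total RNA depleted of ribosomal RNA was sequenced in 3 libraries; per the labels, each started from 1 µg and held fragments of 250 to 400 nt. The authors deposited 3 tables per library, namely a gene table, a first transcript table of like layout and a second transcript table. The files use mm10 and GENCODE M21, per the deposited readme files. The aligner, quantifier and strand setting were not given in the sources used here. The deposited expected counts (estimated counts) are not normalized. The deposited TPM divides counts by effective length and scales each library over all rows, so that messenger RNAs have lower TPM where short RNAs abound. Percent values deposited in the first transcript table are shares of a gene's TPM per transcript; those of the second table were computed from its TPM. Of 81881 gene table rows, 26345 name no annotated gene and were left out; they held 108582, 55077 and 34722 counts in replicates 1, 2 and 3. The libraries were compared and none was a copy of another. There were 0 columns of other samples.

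Levels are deposited TPM, and log2 values use a pseudocount of 1. Variation between libraries was tested on rounded expected counts with TMM-scaled library sizes (edgeR 4.0.16, R 4.3.3), a mean count of 10 or more and a threshold of 0.05 after Benjamini-Hochberg adjustment. The test was checked only on simulated Poisson counts, which do not show how it behaves on counts with a wider spread. Deviations use log2 CPM with a prior count of 0.5. DESeq2 1.42.0 gave alternative size factors. Figures used matplotlib 3.10.9, and other steps scipy 1.17.1, pandas 2.3.3 and numpy 2.4.6 in Python 3.11.15. With 1 group, no difference between conditions was tested. The p-values compare the spread between these libraries with Poisson sampling, so they depend on the number of counts as well as on the spread.

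The members, lists and tests were chosen with earlier results of these data known. Named were the 10 members, the highest and lowest gene of each list, and the 3 protein-coding genes nearest to the members' median deviations. Klf5, Klf14, Klf17, Col1a1, the endothelial and neutrophil markers, and the transcripts described, were named after their values were seen where this rule does not name them. Protein identity within families was planned and is not reported here. The alternatives were other scales, pseudocounts, filters and size factors, the second transcript table and leaving out each library. Intervals and limits reflect counting error alone; without molecular identifiers, reads are not independent molecules.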

Additional observations from a re-analysis of the deposited data

How the results depend on the processing

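With the second transcript table as deposited, 1 member had 100 TPM or more in place of 4, the members' median log2(TPM + 1) was 4.47 in place of 5.37, and 15 context genes in place of 35 had 10 TPM or more; nuclear protein-coding genes held 8.83, 21.4 and 5.91% of its TPM. Rescaled to these genes, the median was 7.26 in the gene table and 7.67 in the second table, or 7.33 there without Klf10-204; then 7 members had 100 or more in the latter, Klf10 among them. Over all annotated genes, 7.46% had 10 TPM or more in place of 18.0%. In TPM as deposited, 0 members were highest in replicate 1 and 8 in replicate 2. The rescalings of the second table, its shares of counts, and the alternatives without a library for the highest level were chosen after seeing the data. Leaving out each library in turn, members highest in replicate 1 numbered 7 to 8, in replicate 2 2 to 3 and in replicate 3 3 to 7; the median stayed between 5.29 and 5.41, and 7 to 9 members passed the variation test. Without replicate 1, 2 or 3 in turn, 55.3, 33.1 and 51.2% of all genes tested passed it, in place of 66.8%. Without replicate 2 these were 4333 of 13093 genes, in place of 8844 of 13237. With DESeq2 size factors, library totals or no filter, 10 of 10 members passed, beside 66.6, 73.1 and 45.7% of all genes tested. No paired analysis was possible because the series has 1 group. Protein identity was not run. The count of 86 for Klf4 in replicate 1 is the smallest of any member and limits its precision.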
